A study of Mus musculus with 6 samples.

Results

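Of 49 genes of the stress hormone axis, monoamine signalling and neurotrophic signalling, 17 carried a region whose DNA methylation was listed as different between 2 groups of mouse embryos, and 32 carried none. The genes were chosen by name, and every region that the authors' deposited table lists under one of those names was taken, whatever the cytosine context. These were 28 of the 9707 distinct regions in the table. The embryos were of C57BL/6 background and had been injected as fertilised eggs with small RNAs of sperm at 2 ng/µl. The donors were normal males for the normal group (3 embryos, numbered 1, 2 and 4) and males with stress-induced depression for the depressed group (3 embryos, numbered 1, 3 and 4). Eggs were cultured first in M16 and then in KSOM medium, and single embryos were lysed at embryonic day 4.5, about 108 h after injection. The sources used here do not give the stress procedure, the strain of the donors, the embryos' sex or an uninjected group. Each region has the authors' mean level of each group, which is the share of cytosines read as methylated after bisulfite treatment. It also has a signed region statistic, of which only the name is given. The table has 0 columns of values per embryo, so no level below has an SD or a replicate number, its read depth is unknown, and no difference could be tested against the spread between embryos. For the same reason the labelled stage could not be checked against marker genes.

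The stress hormone axis runs from the hypothalamus through the pituitary to the adrenal cortex. Corticotropin-releasing hormone (Crh) and vasopressin (Avp) drive release of corticotropin, a product of Pomc, which acts on the adrenal receptor Mc2r, and the corticosteroids made there feed back through the glucocorticoid receptor Nr3c1 and the mineralocorticoid receptor Nr3c2. Serotonin, dopamine and noradrenaline act through receptor families and are broken down by monoamine oxidases, while neurotrophins such as Bdnf signal through Trk receptor kinases. These systems are studied in depression and stress in the adult brain. A late blastocyst has no neurons and no endocrine glands. In mammals methylation lies mainly at CG sites, with far less at CHG and CHH sites, where H is any base but G.

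At 2 genes, Adrb1 and Ntrk2, a region overlapped a CpG island that also covers the gene's start. The Adrb1 region lay wholly inside its island, and of the 141 bp of the Ntrk2 region 33 bp lay in the island and the rest in its shore. The RefSeq promoter windows of these genes (GRCm38.p6, 250 bases before the start to 50 bases after it, plus strand) are shown 5′ to 3′ because they lie in the same islands, with each CG dinucleotide in capitals. Neither window contains the region itself.

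Adrb1, chr19:56721867-56722166: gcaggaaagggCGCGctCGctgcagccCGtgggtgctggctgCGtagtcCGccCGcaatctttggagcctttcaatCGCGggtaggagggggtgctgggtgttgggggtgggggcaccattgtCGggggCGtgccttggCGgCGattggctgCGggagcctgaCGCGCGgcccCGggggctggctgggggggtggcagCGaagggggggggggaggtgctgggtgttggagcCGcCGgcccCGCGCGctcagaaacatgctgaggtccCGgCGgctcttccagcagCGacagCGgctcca

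Ntrk2, chr13:58806319-58806618: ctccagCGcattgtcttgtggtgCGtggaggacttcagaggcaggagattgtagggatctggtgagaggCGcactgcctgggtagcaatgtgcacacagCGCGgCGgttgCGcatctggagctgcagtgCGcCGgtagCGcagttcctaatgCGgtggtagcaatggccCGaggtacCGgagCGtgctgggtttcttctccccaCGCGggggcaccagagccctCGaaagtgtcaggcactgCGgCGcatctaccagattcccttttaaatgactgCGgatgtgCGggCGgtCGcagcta

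The Adrb1 window holds 28 CpGs and lies wholly inside the listed island (chr19:56721645-56723997), and the region listed for Adrb1 begins 557 bp after the gene's start. The Ntrk2 window holds 23 CpGs, with 202 of its 300 bases inside the island (chr13:58806417-58808769), and the Ntrk2 region begins 2168 bp after the start, at the far edge of that island. Of all 32851 promoter windows in the RefSeq table, 85.8% hold fewer CpGs than the Adrb1 window and 78.5% fewer than the Ntrk2 window. No listed region overlapped any of the 58 windows of the 37 member genes that have one. Of all windows, 63 (0.192%) overlapped a region, so 0 of 58 is near the share over all windows. Ntrk3, which has regions listed as promoter, has no window. Mc2r, Hsd11b2, Maob, Adra1a and Egr1, which also have regions, have none either, so their promoters could not be checked this way.

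The 17 genes with a region made up 34.7% of the members, against a background of 18% of 21896 protein-coding genes. Only 1 member had a CG region (background 2.58% of genes). Regions of the CHG context that were lower in the depressed group were listed for 6 members (12.2%, background 6.39%), and a higher CHG region for 1 member (2.04%, background 0.758%). Lower CHH regions were listed for 5 members (10.2%, background 5.37%) and higher CHH regions for 9 members (18.4%, background 9.10%). The shares of all members were thus above the background for CHG and CHH regions, on counts of 9 or fewer genes each. The share with a CG region was close to its background. The members were chosen with earlier results of these data known, so the shares describe these genes and do not test an excess. Of 86 other genes of the same pathways, 17.4% had a region. Where a difference of at least 10 percentage points was required, 9 members (18.4%) had a region, against 10.9% of the protein-coding genes.

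Gene length moved with these shares. Member genes had a median RefSeq span of 43.0 kb, against 17.1 kb over all protein-coding genes, and longer genes more often carried a region. Among genes of 100 kb or more, 7 of 12 members (58.3%) and 55.9% of all genes had a region, and among genes of 50 to 100 kb 2 of 10 members (20%) and 29.8% of all genes did. The members' share was the higher one among genes of 10 to 50 kb, with 5 of 14 (35.7%) against 15.0%, and among genes under 10 kb, with 3 of 13 (23.1%) against 6.02%. The part of gene length in the members' share was not tested.

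**Figure D1:**
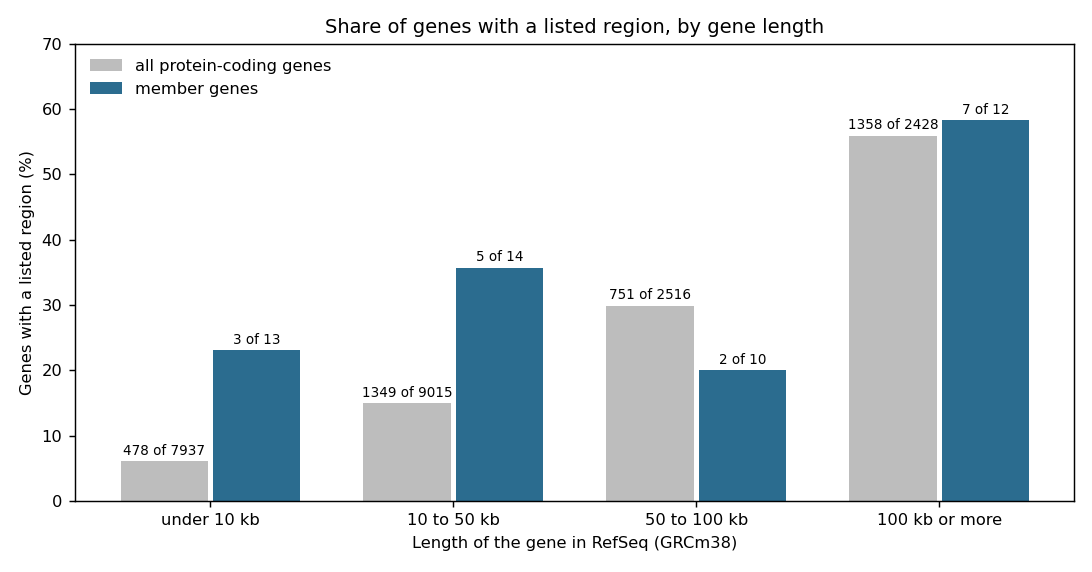
Share of genes with a listed region of any context (vertical axis, percent) in 4 classes of RefSeq gene length (horizontal axis), for all protein-coding genes (grey) and for the 49 member genes (blue), with counts above the bars. Both shares are highest at 100 kb or more (55.9% and 58.3%), and the member bars stand above the grey bars in the classes under 50 kb.

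The counts by role are small and are read beside the background of 18% of protein-coding genes, or 6.02% of those under 10 kb. The 7 genes of secreted ligands, Crh, Avp, Pomc, Adcyap1, Bdnf, Ntf3 and Gdnf, had 0 regions. Membrane receptors of stress peptides, serotonin, dopamine, noradrenaline and neurotrophic factors had one in 11 of 26 genes. The ligand genes were shorter, with a median span of 8.30 kb (1.97 to 65.4 kb) against 44.0 kb for the receptor genes. Not all were short, since Gdnf spans 27.5 kb, Bdnf 52.3 kb and Ntf3 65.4 kb. The background was 15.0% for genes of 10 to 50 kb and 29.8% for genes of 50 to 100 kb. The part of gene length in the ligands' count was not tested. No dopamine receptor (0 of 3) and none of Slc6a4, the serotonin transporter, and the tryptophan hydroxylases Tph1 and Tph2 (0 of 3) had a region, while 3 of 4 adrenoceptors and both 11-beta-hydroxysteroid dehydrogenases did. Adra1a and Adra1b span 136 and 127 kb, a class in which 55.9% of all protein-coding genes had a region. Adrb1 (3.03 kb) and Hsd11b2 (5.24 kb) are short. Hsd11b1 spans 42.4 kb, and its regions are also listed for the overlapping gene Lamb3.

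**Figure D2:**
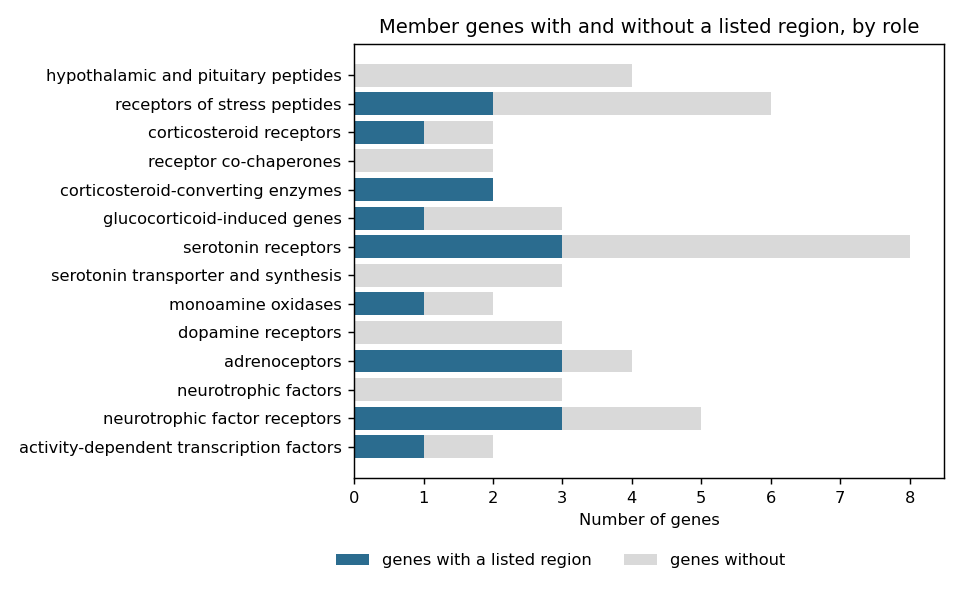
Number of member genes (horizontal axis) with a listed region of any context (blue) and without one (grey), by role of the gene (vertical axis). The rows of peptides, co-chaperones, serotonin transporter and synthesis, dopamine receptors and neurotrophic factors have no blue part.

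Of the 28 regions, 13 stood lower in the depressed group than in the normal one and 15 (53.6%) stood higher. Of the 14 regions with a difference of at least 10 percentage points 14.3% were higher, and of the 13 with at least 20 points 15.4%. Direction went with position in the gene and with cytosine context. In exons or untranslated regions (UTRs) 11 of 13 regions were lower. These 13 came from 8 genes, 4 of them with overlapping CHG and CHH regions. Of the regions in introns but in no exon or UTR, 13 of 15 were higher. In the whole table, 90.6% of 2904 regions in exons or UTRs were lower. Of 4102 regions in introns outside exons and UTRs, 75% were higher, so the members followed the table's general split. That intronic share came from CHH regions, of which 3057 were higher and 351 lower. Intronic regions of the other contexts were mostly lower, with 250 lower and 15 higher for CHG, and 426 lower and 3 higher for CG. Ntrk3 was the only member with regions of both directions.

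The 4 genes with a lower region in both CHG and CHH context all carried it in an exon and the 3′ UTR, within 816 bp of an end of the RefSeq span. Tsc22d3 encodes GILZ, a leucine zipper protein induced by glucocorticoids that mediates part of their anti-inflammatory action. Its CHH region (chrX:140540329-140540573, 38 cytosines) was at 57.6% in the normal and 0.210% in the depressed group, and the CHG region over the same stretch (chrX:140540344-140540580, 14 cytosines) was at 54.8% and 0.0824%. These are the highest normal-group levels of any CHG or CHH region of the members that was lower in the depressed group. Among all lower CHH regions of the table, 84.9% had a lower normal-group level than this one.

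Adcyap1r1 encodes PAC1, the receptor for the neuropeptide PACAP, which acts on stress circuits of the brain. Its CHH region was the longest of all member regions (chr6:55497808-55500869, 3062 bp with 123 cytosines), at 26.3% in the normal and 0.400% in the depressed group. The CHG region inside it (chr6:55499465-55500752, 42 cytosines) was at 33.5% and 0.187%. With a statistic of -266 this CHG region ranked 38 among 1715 lower CHG regions of the table, the highest place of the 7 lower CHG regions of the members.

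Hsd11b2, which inactivates corticosterone and so shields the mineralocorticoid receptor, had a CHH region (chr8:105523179-105523460) at 20.5% in the normal and 0.247% in the depressed group. The CHG region (chr8:105523205-105523445) stood at 21.0% and 0.348%. Egr1, an immediate-early transcription factor that responds to growth factors and neuronal activity, had a CHH region (chr18:34864136-34864764) at 28.6% and 0.895% and a CHG region within it (chr18:34864320-34864429) at 19.9% and 0.0422%.

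At these 4 genes the levels of the CHG and the CHH region were compared in the normal group. They were 0.504 percentage points apart at Hsd11b2, 2.84 at Tsc22d3, 7.25 at Adcyap1r1 and 8.77 at Egr1. Over 840 such overlapping pairs of the table with a lower CHG region the median distance was 4.08 points (quartiles 1.78 and 8.98). Adcyap1r1 and Egr1 were above that median. Overlap itself was common in the table, since 838 of 1715 lower CHG regions (48.9%) overlapped a CHH region, all in the same direction. For lower CHG regions in a 3′ UTR the share was 58.9%, and among the members it was 4 of 5. No CG region was listed over these stretches. The 9 regions of members that touch a 3′ UTR came from 5 genes, 4 of them with overlapping CHG and CHH regions. All 9 were lower in the depressed group, as were 96.0% of the 1547 such regions in the table.

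**Figure D3:**
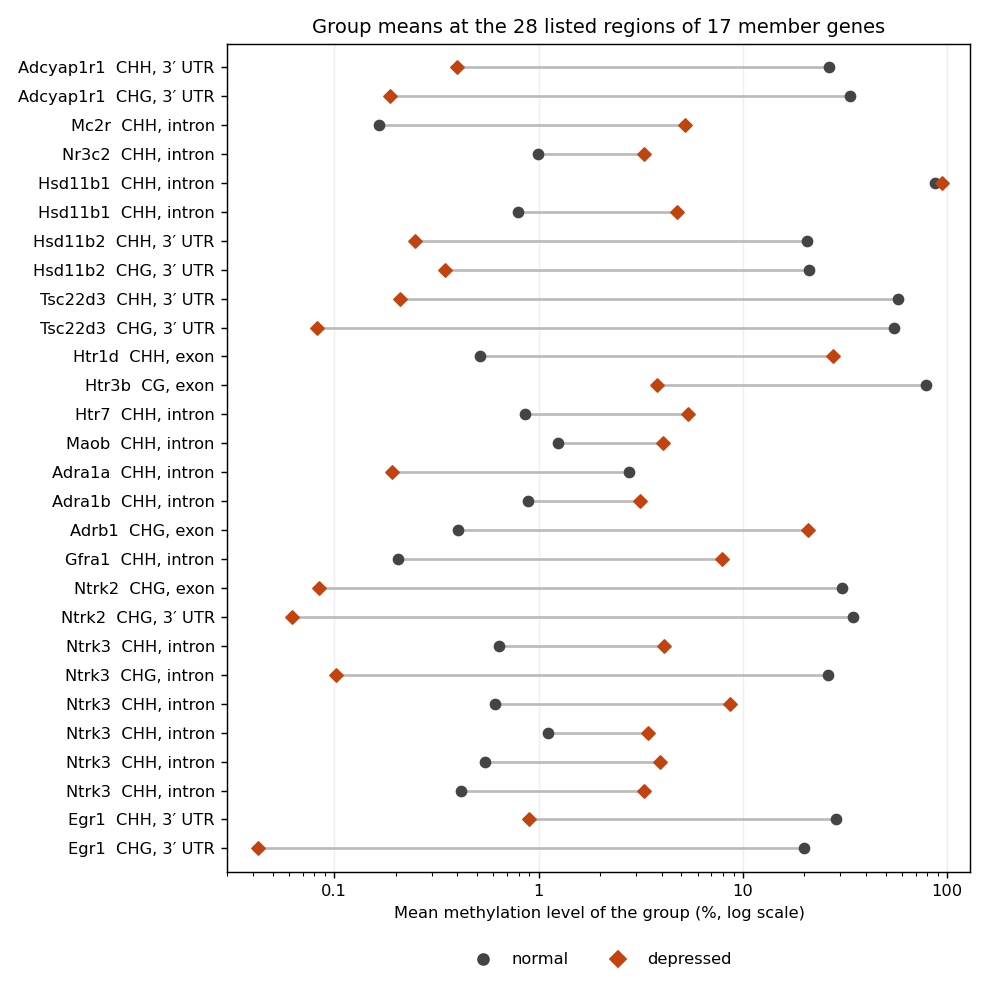
Mean methylation level of the normal group (dark circles) and the depressed group (orange diamonds) at each of the 28 listed regions of member genes, on a log scale in percent, with gene, cytosine context and position on the vertical axis. Regions in 3′ UTRs have the circle on the right, between 19.9 and 57.6%, and most intronic CHH regions have it on the left, at or below 1.24%.

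The Trk receptor genes Ntrk2 and Ntrk3 carried 8 of the 28 regions. Ntrk2 encodes TrkB, the receptor of Bdnf. It had lower CHG regions only, and the first (chr13:58808737-58808877; exon, at the island's edge) was at 30.4% in the normal and 0.0838% in the depressed group. The other (chr13:58936126-58936268), listed as exon, intron and 3′ UTR of Ntrk2 transcripts, was at 34.8% and 0.0620% and lay 129654 bp from the nearest end of the RefSeq span. Neither overlapped a CHH region, as was the case for 51.1% of the lower CHG regions of the table.

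Ntrk3, which encodes TrkC, the receptor of neurotrophin-3 (Ntf3), had 6 regions, the most of any member, in the longest member gene (401 kb). A small CHG region of 4 cytosines in an intron (chr7:78401918-78401977) was at 26.04% in the normal and 0.102% in the depressed group. It had the smallest statistic in size of the members' regions, at -18.7, and ranked 1704 among 1715 lower CHG regions. The other 5 were intronic CHH regions that were higher in the depressed group, with 3.30 to 8.64% against 0.417 to 1.11% in the normal group. The highest of these (chr7:78444377-78444512, 70 cytosines) was at 8.64% in the depressed group, compared with 0.610% in the normal one. At chr7:78193876-78194043 and chr7:78624305-78624525, which are also listed as promoters of Ntrk3 transcripts, the depressed group was at 4.12 and 3.42% and the normal group at 0.642 and 1.11%. The largest statistic of the 5, 758, belonged to a region in a satellite repeat named IMPB_01 (chr7:78663819-78664039) at 3.92% and 0.546%. Of the 6 regions, 3 lay 43271 to 101753 bp beyond the RefSeq span of Ntrk3, although the table lists them as introns of the gene.

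Htr3b, a subunit of the ligand-gated serotonin receptor, had the only CG region among the members (chr9:48936750-48938850; exon, intron and repeats). It was at 78.4% in the normal and 3.80% in the depressed group, a difference of 74.6 percentage points and the widest of the 28 regions. The region spreads 11 CpGs over 2101 bp, while lower CG regions of the table had a median length of 117 bp, and it ranked 25 among 867 of them by its statistic of -106. It lies on chromosome 9, which holds 268 of the 867 lower CG regions. Htr3a, the partner subunit gene on the same chromosome, had no listed region.

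Exonic regions that were higher in the depressed group occurred at Adrb1 and Htr1d. In Adrb1, the beta-1 adrenoceptor gene, a CHG region inside the island shown above (chr19:56722674-56722770, 8 cytosines) was at 20.8% in the depressed group, compared with 0.405% in the normal one. Its level was like that of the 39 higher CHG regions that touch an island, whose median in the depressed group was 20.8%. In Htr1d, a serotonin receptor of the inhibitory Htr1 class, a CHH region in an exon at an island's shore (chr4:136442678-136442845, 42 cytosines) was at 27.6% in the depressed group, compared with 0.515% in the normal one. This was an unusual level for its class. Of 5528 higher CHH regions 98.2% had a lower depressed-group level, and of the 123 in an exon or UTR, 10 exceeded 20%, with a median of 5.41%.

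Intronic CHH regions that were higher in the depressed group formed the largest class among the members, with 13 regions, 12 of them at low levels in both groups. Those 12 belonged to 8 genes, namely Mc2r, Nr3c2, Hsd11b1, Htr7, Maob, Adra1b, Gfra1 and Ntrk3. They ranged from 3.15 to 8.64% in the depressed group and from 0.165 to 1.24% in the normal one, with a median difference of 3.43 percentage points. Over 3033 such regions of the table the median difference was 3.77 points and the medians were 4.76% and 0.784%, against 4.10% and 0.719% for the 12. Single regions were spread more widely. By depressed-group level they stood above 15.1% (Adra1b) to 82.1% (a region of Ntrk3) of all higher CHH regions. The smallest difference of the 12 was 2.26 points, close to the smallest of all higher CHH regions, 2.00 points.

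Among single genes of this class, Gfra1, the receptor that binds Gdnf, had 7.90% in the depressed group, compared with 0.205% in the normal one (chr19:58413098-58413253). Mc2r, the corticotropin receptor, had 5.19% and 0.165% (chr18:68427479-68427678). Htr7, a serotonin receptor coupled to cyclic AMP, had 5.39% and 0.854% at a region of 143 cytosines (chr19:35993171-35993476), with a statistic of 973 that was the largest of the members' CHH regions. The gap was narrower at Maob, Nr3c2 and Adra1b. Maob, which breaks down monoamines, had 4.08% and 1.24% (chrX:16711937-16712153), Nr3c2 had 3.27% and 0.993% (chr8:77171134-77171317), and Adra1b, an alpha-1 adrenoceptor gene, had 3.15% and 0.884% (chr11:43791525-43791726).

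The intronic and the 3′ UTR regions differed in how densely they hold cytosines. The 12 low intronic regions were short (136 to 306 bp) and had 37.0 to 64.7 CHH cytosines per 100 bp, whereas the 4 CHH regions in 3′ UTRs had 4.02 to 23.8 per 100 bp. In the whole table the medians were 50.0 per 100 bp for higher and 21.2 for lower CHH regions. The sources used here do not say whether the number of cytosines of a region covers all of them or only those with reads.

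**Figure D4:**
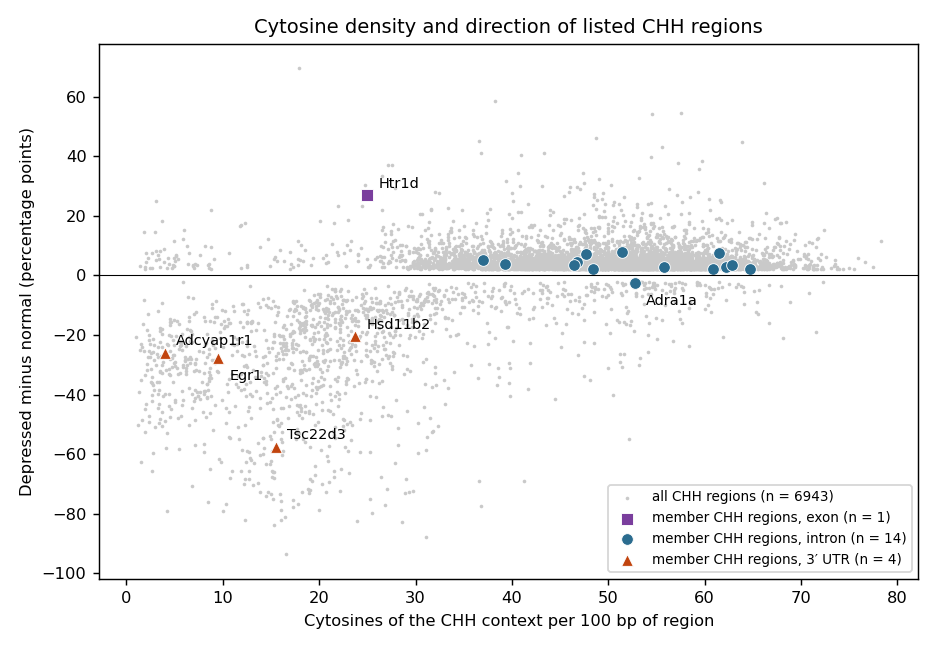
Difference between the group means (vertical axis, depressed minus normal in percentage points) against CHH cytosines per 100 bp of region (horizontal axis) for all 6943 listed CHH regions (grey) and the 19 of member genes (coloured by position in the gene). The 4 regions in 3′ UTRs lie low and to the left, at 4.02 to 23.8 cytosines per 100 bp, 13 of the 14 intronic regions lie just above zero on the right, and Htr1d stands apart at 27.1 points.

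Repeats were listed for 8 of the 19 CHH regions of the members (42.1%), against 55.4% of all CHH regions. IMPB_01, a repeat that the table classes as satellite, was listed for 4 of them, in Hsd11b1, Nr3c2, Ntrk3 and Adra1a, and for 11.6% of all CHH regions. The first 3 were higher in the depressed group, as were 94.1% of the 807 CHH regions with this repeat. Adra1a, an alpha-1 adrenoceptor gene, was the exception (chr14:66696586-66696727), at 0.192% in the depressed group, compared with 2.77% in the normal one. It was the only intronic CHH region of the members that was lower, and of all 1415 lower CHH regions 0.707% had a lower normal-group level.

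Hsd11b1, which regenerates active corticosterone from its inactive form, had 2 intronic CHH regions of very different level. At chr1:193233590-193233775 the depressed group was at 4.76% and the normal group at 0.796%. At chr1:193227803-193227930 (61 cytosines) the levels were 94.8% and 87.5%, so both groups were read as almost wholly methylated there, while higher CHH regions of the table had a median of 0.769% in the normal group. Among 6943 CHH regions, 123 (1.77%) were above 50% in both groups and 53 were above 80% in both. Both Hsd11b1 regions are also listed for introns of Lamb3, which overlaps it.

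No region was listed for the other 32 members. Besides the 7 ligand genes these were the stress peptide receptors Crhr1, Crhr2, Avpr1a and Avpr1b, the glucocorticoid receptor Nr3c1 and its co-chaperones Fkbp4 and Fkbp5, and the glucocorticoid-induced genes Sgk1 and Per1. On the monoamine side they were Htr1a, Htr1b, Htr2c, Htr3a and Htr4, Slc6a4, Tph1, Tph2, Maoa, the dopamine receptors Drd1, Drd2 and Drd3, and Adra2a. Ngfr, Gfra2 and the transcription factor Creb1 completed the list. Their median span was 30.8 kb, against 61.0 kb for the members with a region, and 5 of them span 100 kb or more, up to 235 kb for Htr2c. A gene without a listed region may have been below the authors' thresholds or without enough reads, which cannot be told apart here.

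Within 10 kb of a member's RefSeq span, 5 regions were listed under another name or under a repeat alone. Of these, 3 lay 2445 to 5115 bp from Pomc in the 3′ UTR of its neighbour Efr3b and were lower in the depressed group, among them a CHH region at 22.03% in the normal and 0.240% in the depressed group (chr12:3963088-3965824). At Adra1b, a CHG region of 4 cytosines in repeats (chr11:43771008-43771063), 3542 bp from the span, was at 73.5% in the normal and 0.0460% in the depressed group. At Mc2r, a CHH region in repeats 6017 bp away (chr18:68435337-68435498) was at 2.53% in the depressed group, compared with 0.242% in the normal one. Pomc was the only member without a region of its own that had one this near.

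A list of 86 other genes of the same pathways had 15 genes (17.4%) with 26 regions, close to the background of 18%. Among them were 6 of 31 further stress hormone genes, 5 of 29 monoamine genes and 4 of 26 neurotrophic genes. Of the 86 genes, 40 span under 10 kb and 4 span 100 kb or more, against 13 and 12 of the members. Under 10 kb 7.5% of the 86 had a region (background 6.02%), and at 10 to 50 kb 19.4% (15.0%). At 50 to 100 kb it was 27.3% (29.8%), and at 100 kb or more 3 of 4 genes (55.9%). The part of gene length in the share of these genes was not tested. All 17 of their regions in exons or UTRs, from 9 genes, were lower in the depressed group, and 8 of 9 intronic ones were higher. The largest statistic of the list belonged to the 3′ UTR of Sort1, which encodes sortilin, a sorting receptor that binds proneurotrophins, with a CHH region of 3089 bp (chr3:108358078-108361166) at 42.5% in the normal and 0.628% in the depressed group. Regions in 3′ UTRs were also listed for Slc6a3, the dopamine transporter gene (CHH, 24.2% in the normal and 0.648% in the depressed group), for Ret, the signalling receptor for Gdnf (CHH, 29.8% and 0.879%), and for the histamine receptor gene Hrh3 (CHH, 23.6% and 0.907%). Kidins220, a scaffold protein of Trk receptors, had an exonic CHG region at 44.1% and 0.702% and a further one in its 3′ UTR at 46.5% and 0.145%.

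Genes of the receptor's chaperone machinery and of signal processing completed this list. Hsp90ab1, a chaperone that holds steroid receptors ready for hormone, had a CHG region in an exon at 73.7% in the normal and 0.487% in the depressed group, and Hsp90aa1 one at 24.2% and 0.242%. The prohormone convertase gene Pcsk2, which processes Pomc, had an exonic CHH region at 5.93% and 0.739%, and the adaptor gene Shc1 one at 45.6% and 0.111%. Vipr1, a receptor for the peptide VIP, had the only CG region of this list, at 72.9% in the normal and 2.29% in the depressed group in an intron (chr9:121646408-121646577), on chromosome 9 like that of Htr3b. Higher intronic CHH regions, at 2.66 to 6.49% in the depressed group and 0.276 to 1.69% in the normal one, were listed for 7 of these genes.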

How the data were processed

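Whole-genome bisulfite libraries of 6 single embryos were made by random priming, per the labels' protocols. Reads were handled with SAMtools, Bismark and Trim Galore 0.3.3 on mm10, per the submitters' processing notes. The sources used here do not give the caller of the regions, its thresholds, a coverage filter or how embryos were pooled. The deposited table gives group means as a fraction (printed here as percent), their difference, the number of cytosines, and a region statistic, a score, per the file headers.

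Its 18732 annotation entries were collapsed to 9707 regions by chromosome, start, end and context, and 41 entries of 17 members to 28 regions. Depth is unknown, so no coverage minimum or interval was used and no test between embryos was made. Counts are set beside those over all regions, or over 21896 protein-coding RefSeq genes (GRCm38.p6). Of 4040 gene names, 3981 matched a RefSeq gene of any type by symbol or unique synonym, as did 49 of 49 members. Ranks use the absolute statistic within a context and direction. Coordinates are 1-based, mm10. Python 3.11.15 with pandas 2.3.3 was used, and the counting steps were tested on simulated data. Members, role lists and comparisons were chosen with earlier results of these data known. By the rule for named genes, every member with a region is named, with values for all regions in a promoter, UTR or exon, all CG and CHG regions and the strongest CHH region of each member. Alternatives covered the size of the difference, cytosine number, statistic, distance to the gene, annotation class and background.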

Additional observations from a re-analysis of the deposited data

How the results depend on the processing

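The counts depend on how small a difference is admitted. Against 17 members, 28 regions, 14 members with a CHH region and 73.7% of CHH regions higher, a difference of at least 10 percentage points left 9 members, 14 regions, 5 members with CHH and 20% of CHH regions higher, with 14.3% of all member regions higher and 10.9% of background genes with a region. At 20 points the values were 9, 13, 5, 20%, 15.4% and 8.15%. With at least 10 cytosines, 4 members had a CHG region (7 before), 0% of CHG regions were higher (12.5% before) and the background was 15.1%. With the statistic at or above the median of its context, 10 members, 16 regions, 4 members with CHG and 8 with CHH were left, with 0% of CHG regions higher and a background of 10.6%. With a promoter, UTR or exon entry for the gene, 9 members, 15 regions and 6 members with CHH were left, with 42.9% of CHH and 26.7% of all member regions higher and a background of 9.17%. Without regions in repeats, an alternative chosen after seeing the data, 0 members had a CG region, 9 had a CHH region and the background was 14.2%. The background was 16.6% with midpoints inside the RefSeq span and 7.96% over all RefSeq genes. The members' share was above the background in each of these settings, which were not tested. The settings draw on the same regions and the same chosen genes, so they are not separate support for that share. Without repeats, 12 members and 19 regions were left. Counts within 1.5 times the reported one were taken as unchanged, as were shares within their 95% binomial interval, which held for 49 values. With overlapping regions merged, 15 of 24 loci were higher. No paired analysis was possible because the table holds no values per embryo, and for the same reason no replicate could be left out. Depth, which is unknown, limits every level. No rate of bisulfite conversion was used here, so unconverted cytosines could not be told apart from methylated ones.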
